A study of Mus musculus with 12 samples.

Results

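The cell cycle and DNA replication genes described here are 47 genes listed by name for their part in S phase or in mitosis, 19 of them replication genes and 28 mitotic genes. They were followed among 35214 genes of the mouse cell line Ocy454, and all 47 were among the 12542 genes with enough reads to be tested. Polyadenylated RNA came from 4 groups of 3 libraries. Cells had grown to confluence and differentiated for 5 days, received 200 nM of BGJ398, an inhibitor of the FGF receptor kinases, or DMSO as vehicle for 1 h, and then spent 48 h with or without 2 ng/mL of fibroblast growth factor 2 (FGF2), so that RNA was taken on differentiation day 7. The groups are DMSO (vehicle, no added FGF2), DMSO+FGF2, BGJ398 (inhibitor, no added FGF2) and BGJ398+FGF2. All libraries share the same cell line, growth medium with serum, differentiation time and vehicle or inhibitor pretreatment, and the labels give triplicates without saying whether these were separate cultures, so a p-value reflects only how these libraries spread, which may be technical.

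Ocy454 is a conditionally immortalised line of osteocyte character. It carries a temperature-sensitive large T antigen, which binds the retinoblastoma family of proteins, and it is expanded at a lower temperature before differentiation at body temperature. Cells enter S phase when cyclin E and CDK2 release E2F factors from retinoblastoma proteins, and E2F then drives genes for origin licensing, the replicative helicase and nucleotide synthesis. Mitotic genes peak later. They are switched on by the MuvB complex with B-MYB and FOXM1, acting largely through the cell cycle homology region (CHR) and CCAAT boxes bound by NF-Y, and in resting cells the related DREAM complex keeps them low. FGF2 is known as a mitogen of many mesenchymal cells and acts through receptors, ERK and cyclin D, while osteocytes in bone are post-mitotic.

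The 2 classes are known for different promoter elements, so the bases before the annotated start of 7 genes are printed, 4 mitotic and 3 replication genes that the results below turn on. They come from the RefSeq promoter table of build GRCm38.p6, are written 5′ to 3′ on the strand of the gene, and cover the 150 bases that end at the start. Capitals mark the E2F core GCGGGAA, read on the other strand as TTCCCGC, the CHR element TTTGAA, whose reverse complement reads TTCAAA, and the NF-Y box CCAAT, which on the other strand is ATTGG.
Cdk1 (chr10:69352913-69353062, minus strand): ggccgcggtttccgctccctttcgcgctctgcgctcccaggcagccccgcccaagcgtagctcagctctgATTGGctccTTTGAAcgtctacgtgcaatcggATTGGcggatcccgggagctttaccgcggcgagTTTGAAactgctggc
Ccnb1 (chr13:100786487-100786636, minus strand): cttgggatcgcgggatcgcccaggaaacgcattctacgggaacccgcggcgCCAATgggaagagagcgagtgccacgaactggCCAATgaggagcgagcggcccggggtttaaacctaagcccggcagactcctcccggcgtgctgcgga
Plk1 (chr7:122159285-122159434, plus strand): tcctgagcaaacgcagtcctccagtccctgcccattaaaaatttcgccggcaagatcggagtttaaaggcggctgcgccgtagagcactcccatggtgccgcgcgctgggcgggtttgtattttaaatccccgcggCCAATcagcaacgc
Kif11 (chr19:37376232-37376381, plus strand): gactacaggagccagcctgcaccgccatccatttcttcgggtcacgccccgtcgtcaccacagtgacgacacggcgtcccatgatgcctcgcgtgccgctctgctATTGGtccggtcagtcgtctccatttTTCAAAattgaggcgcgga
Cdc6 (chr11:98908001-98908150, plus strand): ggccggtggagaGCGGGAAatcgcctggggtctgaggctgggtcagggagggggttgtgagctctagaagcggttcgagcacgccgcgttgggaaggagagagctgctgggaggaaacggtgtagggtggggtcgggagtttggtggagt
Rrm1 (chr7:102441545-102441694, plus strand): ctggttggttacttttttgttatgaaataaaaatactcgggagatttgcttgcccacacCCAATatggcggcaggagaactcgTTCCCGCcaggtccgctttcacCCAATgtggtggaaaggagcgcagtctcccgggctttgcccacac
Rrm2 (chr12:24708104-24708253, plus strand): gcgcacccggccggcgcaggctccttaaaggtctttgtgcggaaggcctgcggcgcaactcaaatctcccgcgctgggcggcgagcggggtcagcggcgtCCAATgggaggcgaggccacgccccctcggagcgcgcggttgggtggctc

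In the printed bases Cdk1 has 2 CHR and 2 CCAAT matches, Kif11 has 1 of each, Ccnb1 has 2 CCAAT boxes and Plk1 has 1. Among the replication genes Cdc6 and Rrm1 hold an E2F core, and Rrm1 and Rrm2 hold CCAAT boxes. Over windows from 250 bases before to 50 bases after the start, 38 of the 47 genes had an entry, the replication genes with 17 windows for 16 genes and the mitotic genes with 22. Genes without an entry were Mcm4, Gins2, Ccne2, Ccna2, Cdc25c, Aurkb, Kif20a, Tpx2 and Foxm1. The E2F core stood in 41.2% of replication windows, 4.55% of mitotic windows and 4.6% of the 32851 windows of all genes. The CHR stood in 11.8%, 63.6% and 17.9% of them, and the CCAAT box in 64.7%, 81.8% and 37.4%. None of the 3 motifs contains another, a match is not a bound site, and a window without one says only that these letters are not in it. The 2 classes thus differed in these letters, with the CHR in 14 of 22 mitotic windows and in 2 of 17 replication windows.

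**Figure D1:**
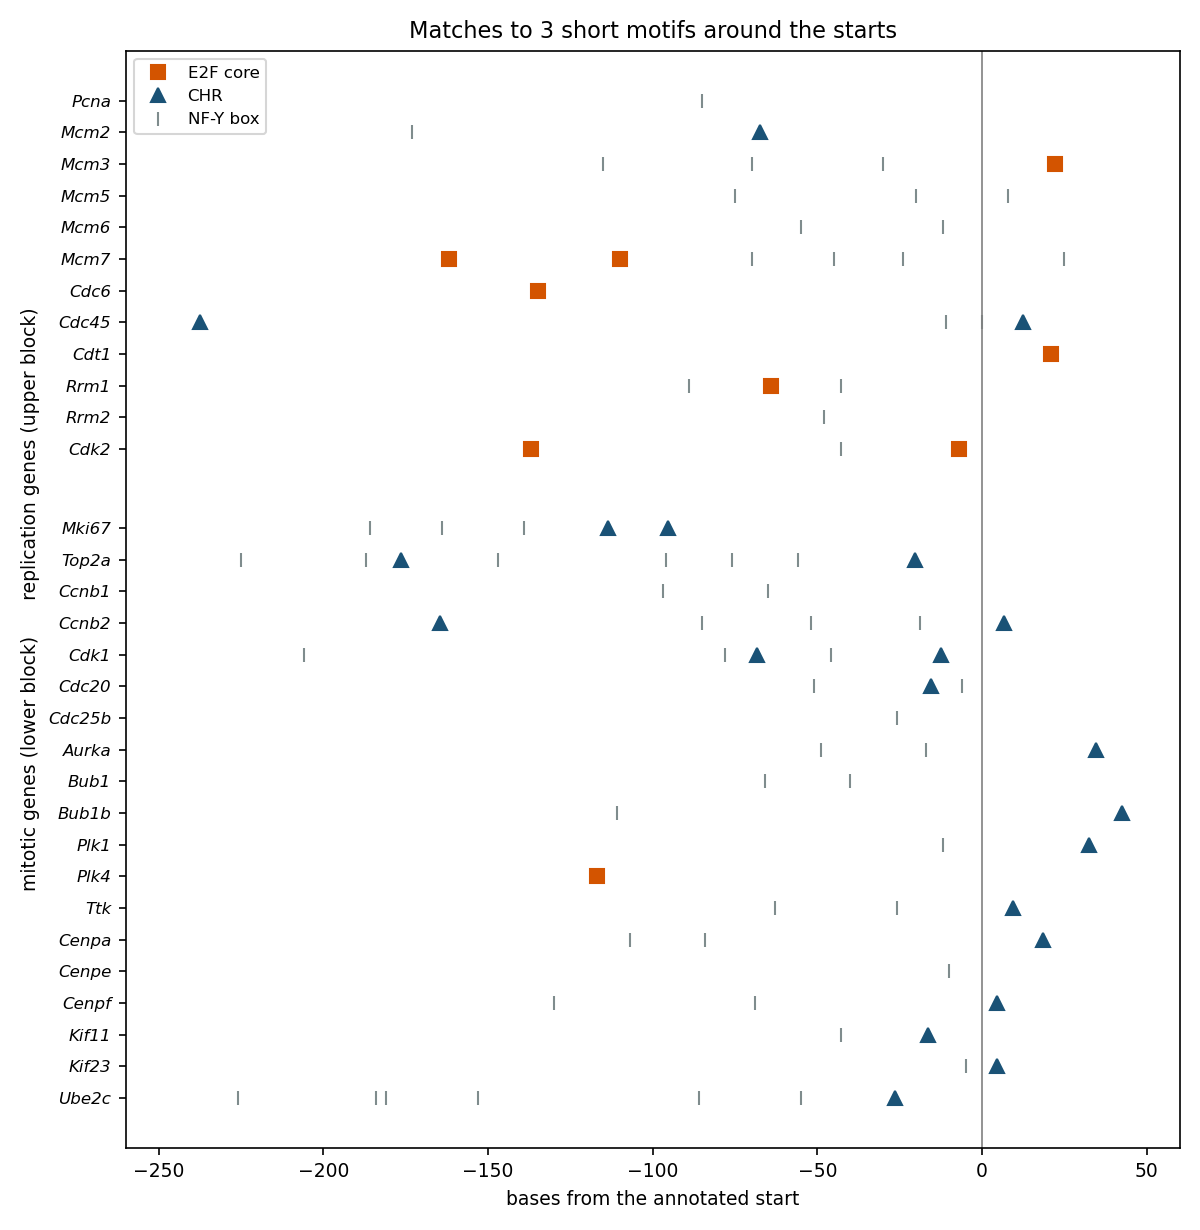
Matches to the E2F core (squares), the CHR (triangles) and the CCAAT box (bars, marked NF-Y box) on either strand, by distance in bases from the annotated start, for the genes with a match. Mcm7 has 2 windows, drawn on 1 line. Triangles lie mainly in the lower block of mitotic genes, close to the start, and squares mainly in the upper block of replication genes.

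Levels of the genes show how far these cultures still transcribed a proliferation programme on day 7. On the length-corrected TPM scale, relative transcript abundance within a library, Pcna, the sliding clamp of DNA polymerase, was the highest replication gene at a mean of 485 over the 12 libraries (447 to 539) and ranked 284 among the 12542 genes tested. The MCM helicase subunits followed, with Mcm6 at 330 TPM and Mcm2 at 309 TPM, and cyclin E1, Ccne1, was the lowest at 16.9 TPM (15.5 to 19). Among mitotic genes Cdk1, the kinase that drives entry into mitosis, was highest at 269 TPM (227 to 298), ahead of the topoisomerase Top2a at 216 TPM. The lowest was the kinetochore protein gene Cenpf at 14.1 TPM (10.6 to 16.1). Every one of the 47 genes had at least 4839 reads over the 12 libraries, and together they took 0.689% to 0.76% of the reads of a library.

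Depth was 18951710 to 27716975 reads per library. Of 7 osteocyte markers 3 had enough reads to be tested. Sost and Mepe, which mature osteocytes express, had 0 reads, Dmp1 had 26 and Fgf23 had 6 over the 12 libraries. The other osteocyte markers had more reads, with Phex at 116, Pdpn at 8195 and Irx5 at 8193. Of the osteoblast markers, the bone collagen gene Col1a1 averaged 2452 TPM, while Ibsp had 279 reads and Bglap 167. The libraries also shared deviations from their group means that followed transcript length: 1 axis held 47.5% of the within-group variance, and its loadings correlated with effective length across genes (Spearman −0.68, genes are not independent). BGJ398+FGF2 replicate 2 (score 0.62), BGJ398 replicate 1 (0.40) and DMSO+FGF2 replicate 2 (0.34) stood apart on it. Counts below are therefore given with and without these 3 libraries, and genes with offsets for length and GC content where those change a call, both chosen after seeing the data. The 3 libraries were picked for their deviation from group means, so leaving them out lowers the spread by that choice. Smaller p-values without them are therefore no separate support.

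The 4 longest genes of the set moved with this axis. Mki67, the gene of the proliferation antigen Ki-67, has an effective length of 10444 bases, Cenpf 9738, Cenpe 7337 and Kif11 4105, against a median of 2257 over all genes tested. In the 3 libraries that stood apart the mean deviation of these 4 genes from the group mean was −0.27, −0.10 and −0.12 on the log2 scale. The remaining genes of the set deviated by −0.03 to 0.02 on average in the 12 libraries, but this average cancels opposite moves of single genes. On the axis, loadings times 100 were −2.11 for Mki67 and −1.22 for Cenpe. Among the shorter genes, Bub1 (effective length 2667) was at −1.42 and Top2a at −0.98, while Ccnb2 and Birc5 were at 1.05.

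**Figure D2:**
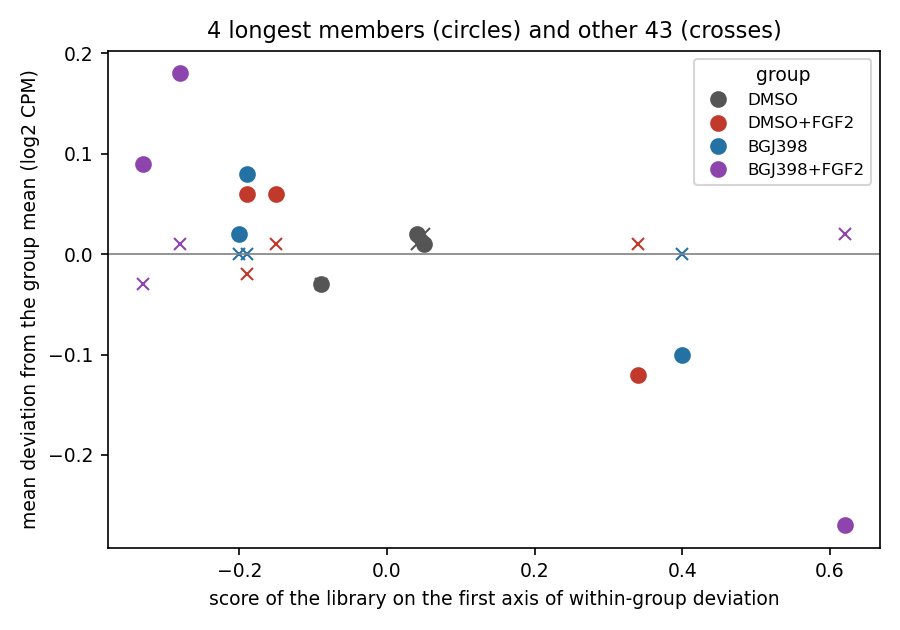
Mean deviation from the group mean (log2 CPM, vertical) of the 4 longest genes (circles) and the other genes of the set (crosses) against the score of each library on the shared axis (horizontal), coloured by group. The 3 libraries at scores of 0.34 to 0.62 have the lowest circles, at −0.10 to −0.27, while crosses stay between −0.03 and 0.02.

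The average of the mitotic genes separated the DMSO+FGF2 libraries from the rest, and that of the replication genes did not. Values here and below are CPM, reads relative to the library total after scaling between libraries, with no correction for length. The mean log2 CPM of the 28 mitotic genes was 6.44, 6.50 and 6.51 in DMSO, 6.31, 6.30 and 6.28 in DMSO+FGF2, 6.40, 6.45 and 6.45 in BGJ398, and 6.50, 6.41 and 6.40 in BGJ398+FGF2. DMSO+FGF2 was lowest and did not overlap the other groups. The 19 replication genes averaged 7.26, 7.27 and 7.29 in DMSO, 7.29, 7.28 and 7.27 in DMSO+FGF2, 7.24, 7.20 and 7.20 in BGJ398, and 7.18, 7.25 and 7.22 in BGJ398+FGF2, so that the libraries with inhibitor lay below those without it. As a difference of the 2 averages, mitotic minus replication, the DMSO+FGF2 libraries read −0.98, −0.98 and −0.99, and the other 9 read −0.67 to −0.84. In bulk RNA, fewer cells in a phase of the cycle and less RNA per cell cannot be told apart.

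**Figure D3:**
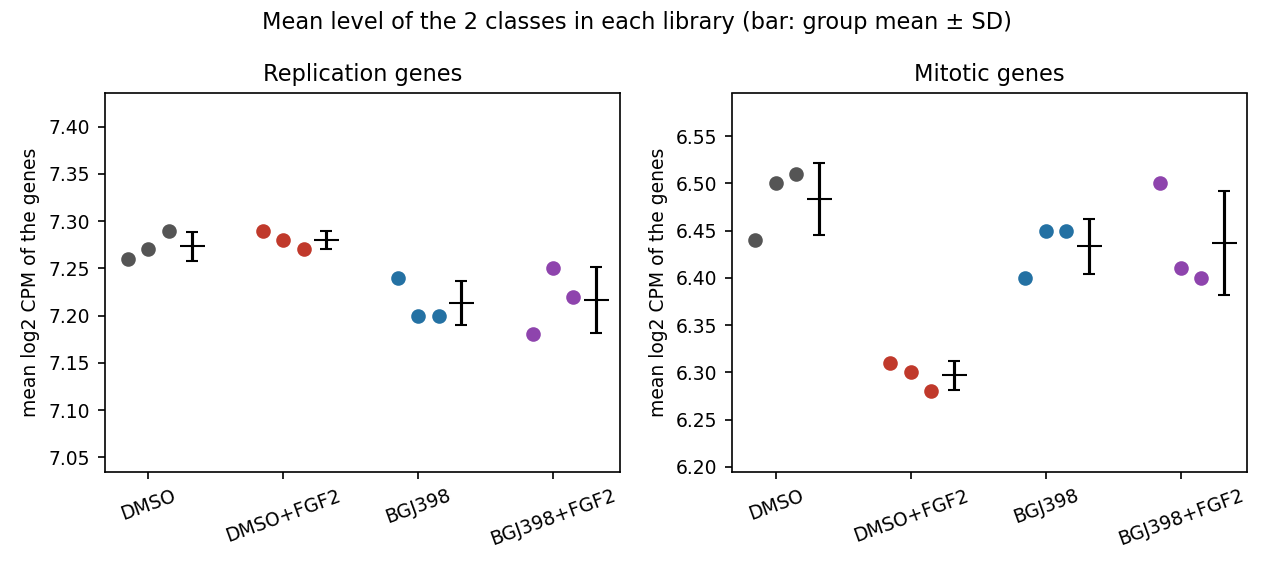
Mean log2 CPM (vertical) of the 19 replication genes (left) and 28 mitotic genes (right) in each library (points) by group, with the group mean ± SD (n = 3) beside them. The mitotic average is 6.28 to 6.31 in DMSO+FGF2 and 6.40 to 6.51 in the other groups, and the replication average spans 7.18 to 7.29.

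The first comparison, DMSO+FGF2 against DMSO, asked how FGF2 acted on the set with receptors active. Genes of mitosis fell: cyclins A2 and B1, the mitotic kinase Plk1, the spindle checkpoint gene Mad2l1, the centromere genes Cenpa, Cenpe and Cenpf, and the kinesins Kif11, Kif20a and Kif23, with changes of −13.2% (Ccnb1) to −21.6% (Cenpe). Only 4 replication genes were called, the licensing factors Cdc6 and Cdt1 higher and both ribonucleotide reductase subunits, Rrm1 and Rrm2, lower. By edgeR's quasi-likelihood test with Benjamini-Hochberg adjustment at 0.05, 10 of 28 mitotic genes were lower and 0 higher, where 5.82% of all genes tested were lower and 7.57% higher. In all, 27 of the 28 mitotic log2 fold changes were negative, with a median of −0.19, against a median of −0.00 over all genes tested. Log2 fold changes below are given ± SE (n = 3 libraries a group). Of the 19 replication genes 2 were higher and 2 lower, with a median of 0.02. As a class they were thus near the shares over all genes tested.

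Cyclin A2 (Ccna2, ENSMUSG00000027715), which partners CDK2 and CDK1 from S phase into mitosis, was at 211, 227 and 228 CPM in DMSO, 181, 178 and 187 in DMSO+FGF2, 202, 204 and 211 in BGJ398 and 215, 212 and 200 in BGJ398+FGF2. All DMSO+FGF2 libraries lay below the other 9. FGF2 changed it by −0.28 ± 0.05 (adjusted p = 0.00183) on the log2 scale, so that it fell by 17.9%, and this stayed past the threshold in all 22 other settings. Cyclin B1 (Ccnb1), the partner of CDK1, was measured in DMSO at 109, 119 and 121 CPM, in DMSO+FGF2 at 104, 104 and 95.3, in BGJ398 at 116, 120 and 119 and in BGJ398+FGF2 at 127, 113 and 121. Its DMSO+FGF2 libraries were below the remaining ones, with a change of −0.20 ± 0.06 (adjusted p = 0.0388). It shares 46.9% of its 31-base words with other genes, chiefly the pseudogene Ccnb1-ps, and is uncertain for that reason. The kinase gene itself, Cdk1, was at 114, 119 and 121 CPM in DMSO, 114, 116 and 103 in DMSO+FGF2, 116, 122 and 120 in BGJ398 and 127, 135 and 122 in BGJ398+FGF2. DMSO and DMSO+FGF2 overlapped for it, and the FGF2 change was −0.09 ± 0.06 (adjusted p = 0.365).

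Among mitotic kinases and checkpoint genes, Plk1 (ENSMUSG00000030867), which acts from centrosome maturation to cytokinesis, was measured in DMSO at 61.6, 70.4 and 71.0 CPM, in DMSO+FGF2 at 56.2, 59.9 and 49.1, in BGJ398 at 64.7, 70.2 and 65.1 and in BGJ398+FGF2 at 72.1, 69.7 and 63.5. Its FGF2 change was −0.30 ± 0.08 (adjusted p = 0.0275), with the DMSO+FGF2 libraries below all others. Mad2l1 (ENSMUSG00000029910) encodes MAD2, which holds the anaphase-promoting complex inactive until chromosomes attach, and was at 99.3, 99.1 and 98.5 CPM in DMSO, 89.5, 84.3 and 81.1 in DMSO+FGF2, 95.9, 108 and 109 in BGJ398 and 116, 115 and 111 in BGJ398+FGF2. The DMSO libraries lay close together and above DMSO+FGF2, with a change of −0.22 ± 0.06 (adjusted p = 0.023). The checkpoint kinase Ttk was measured in DMSO at 24.2, 24.2 and 27.9 CPM, in DMSO+FGF2 at 23.4, 20.8 and 21.2, in BGJ398 at 22.8, 25.6 and 27.2 and in BGJ398+FGF2 at 30.8, 28 and 24.7. Its libraries were lower in DMSO+FGF2 than in DMSO, but the change of −0.22 ± 0.10 (adjusted p = 0.166) missed the threshold. The related kinases Plk4, Aurka, Aurkb, Bub1 and Bub1b, none past the threshold, had log2 fold changes of −0.18 to −0.02.

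Cenpa, the histone H3 variant that marks centromeres, was at 62.7, 68.7 and 69.2 CPM in DMSO, 55.3, 60.3 and 54.1 in DMSO+FGF2, 62.5, 64.1 and 61.3 in BGJ398 and 64.1, 66.4 and 61.9 in BGJ398+FGF2. Cenpe, a kinetochore motor protein, was measured in DMSO at 91.2, 93.9 and 93.9 CPM, in DMSO+FGF2 at 78.3, 67.9 and 72.6, in BGJ398 at 84.5, 90.5 and 88.7 and in BGJ398+FGF2 at 96.3, 69.0 and 82.8. Cenpf, another kinetochore protein, was at 91.1, 97.8 and 94.0 CPM in DMSO, 77.0, 71.5 and 80.3 in DMSO+FGF2, 82.2, 95.2 and 86.3 in BGJ398 and 90.1, 67.9 and 85.3 in BGJ398+FGF2. In all 3 the DMSO+FGF2 libraries lay below the DMSO libraries, and the changes were −0.24 ± 0.06 (adjusted p = 0.0166) for Cenpa, −0.35 ± 0.09 (adjusted p = 0.0243) for Cenpe and −0.31 ± 0.09 (adjusted p = 0.0404) for Cenpf. With offsets for length and GC content the Cenpf change was −0.12 with an adjusted p of 0.179, and that of Cenpe −0.19 with an adjusted p of 0.0433. With length-scaled TPM counts Cenpa was at −0.14 (adjusted p = 0.511) and Cenpe at −0.20 (adjusted p = 0.308).

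The kinesin Kif11 (Eg5), which pushes spindle poles apart, was measured in DMSO at 141, 145 and 141 CPM, in DMSO+FGF2 at 122, 108 and 121, in BGJ398 at 127, 140 and 145 and in BGJ398+FGF2 at 153, 117 and 144. Kif20a, a motor of the central spindle, was at 117, 122 and 135 CPM in DMSO, 103, 112 and 99.7 in DMSO+FGF2, 121, 121 and 122 in BGJ398 and 127, 119 and 121 in BGJ398+FGF2. Kif23, the motor of centralspindlin in cytokinesis, was measured in DMSO at 51.2, 53.2 and 52.2 CPM, in DMSO+FGF2 at 42.0, 46.2 and 42.9, in BGJ398 at 48.5, 50.5 and 49.7 and in BGJ398+FGF2 at 52.9, 46.8 and 46.7. All 3 fell, without overlap between DMSO and DMSO+FGF2, with changes of −0.29 ± 0.09 (adjusted p = 0.0402) for Kif11, −0.25 ± 0.06 (adjusted p = 0.0141) for Kif20a and −0.26 ± 0.06 (adjusted p = 0.0159) for Kif23. Kif11 changed by −0.18 with length and GC offsets (adjusted p = 0.00341) and is 1 of the 4 long genes. Kif23 was at −0.17 (adjusted p = 0.433) with length-scaled TPM counts.

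3 genes often read as proliferation markers did not pass in the fit of all 4 groups without offsets, but each did under other settings. Of these settings, leaving out the 3 libraries that stood apart lowers p-values by the selection itself. Mki67 was at 252, 249 and 261 CPM in DMSO, 204, 173 and 216 in DMSO+FGF2, 199, 236 and 219 in BGJ398 and 218, 147 and 220 in BGJ398+FGF2. Its DMSO libraries lay above those with FGF2, with a change of −0.36 ± 0.13 (adjusted p = 0.0799), with BGJ398+FGF2 replicate 2 the lowest of the 12. Without the 3 libraries that stood apart the change was −0.28 (adjusted p = 0.000328), and with the offsets −0.20 (adjusted p = 0.00624). Top2a, which untangles sister chromatids, was measured in DMSO at 474, 495 and 517 CPM, in DMSO+FGF2 at 439, 403 and 428, in BGJ398 at 430, 489 and 487 and in BGJ398+FGF2 at 495, 413 and 479. Its change was −0.23 ± 0.07 (adjusted p = 0.0584), or −0.19 (adjusted p = 0.00361) without those 3 libraries and −0.15 (adjusted p = 0.0208) with the offsets. Foxm1, the transcription factor of the mitotic programme, was at 214, 207 and 213 CPM in DMSO, 195, 181 and 197 in DMSO+FGF2, 189, 190 and 193 in BGJ398 and 195, 172 and 191 in BGJ398+FGF2. It differed by −0.15 ± 0.06 (adjusted p = 0.106), and its DMSO+FGF2 libraries overlapped both inhibitor groups. Without those 3 libraries it was at −0.11 (adjusted p = 0.0423), and with the offsets at −0.17 (adjusted p = 0.0114). Fitted on the 2 compared groups alone, Mki67 (adjusted p = 0.00338), Top2a (0.00693) and Foxm1 (0.0456) passed. Calls over all genes rose in these settings too, from 1680 of 12542 tested. They were 2438 of 12439 on the compared groups alone and 2659 of 12542 with the offsets, which were fitted to these same data. Passing in these settings is therefore no separate support. The rest of the mitotic genes, with log2 fold changes of −0.21 to 0.00, did not pass either: the cyclin Ccnb2, the CDK1-activating phosphatases Cdc25b and Cdc25c, Cdc20 and Ube2c of the anaphase-promoting complex, survivin (Birc5), and the spindle proteins Nusap1 and Tpx2.

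In the replication class Cdc6 (ENSMUSG00000017499), which loads the MCM helicase at origins with the origin recognition complex, was measured in DMSO at 60.1, 62.1 and 60.3 CPM, in DMSO+FGF2 at 68.6, 68.5 and 69.3, in BGJ398 at 55.5, 57.2 and 56.6 and in BGJ398+FGF2 at 53.0, 56.1 and 54.5. The DMSO+FGF2 libraries were the highest 3 of the 12. FGF2 raised it by 0.18 ± 0.05 (adjusted p = 0.0263), or by 0.10 (adjusted p = 0.425) with limma on log2 TPM. Of the 22 other settings 9 ended this call. Leaving out any 1 DMSO or DMSO+FGF2 library did so, at adjusted p of 0.065 to 0.102. Cdt1 (ENSMUSG00000006585), its partner in loading the helicase, was at 206, 206 and 217 CPM in DMSO, 239, 255 and 247 in DMSO+FGF2, 211, 190 and 181 in BGJ398 and 187, 201 and 204 in BGJ398+FGF2. Here too DMSO+FGF2 lay above the other 9 libraries, with a change of 0.24 ± 0.06 (adjusted p = 0.018). The Cdt1 call ended in 5 of the 22 other settings, at adjusted p of up to 0.077 without DMSO+FGF2 replicate 2.

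The ribonucleotide reductase subunits, which make the building blocks of DNA, went the other way. The large subunit Rrm1 was measured in DMSO at 426, 421 and 423 CPM, in DMSO+FGF2 at 375, 375 and 375, in BGJ398 at 412, 434 and 427 and in BGJ398+FGF2 at 431, 420 and 429, and the small subunit Rrm2 (ENSMUSG00000020649), whose level normally follows S phase, was at 62.7, 66.3 and 68.2 CPM in DMSO, 55.8, 53.6 and 53.2 in DMSO+FGF2, 63.2, 63.6 and 67.3 in BGJ398 and 68.6, 65.3 and 62.4 in BGJ398+FGF2. In both, the DMSO+FGF2 libraries were the lowest 3 of the 12. The changes were −0.17 ± 0.04 (adjusted p = 0.0154) for Rrm1 and −0.28 ± 0.06 (adjusted p = 0.00511) for Rrm2. Rrm2 stayed past the threshold in all 22 other settings, whereas Rrm1 was at −0.11 (adjusted p = 0.094) with length and GC offsets.

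The helicase and G1/S genes did not pass with FGF2 in the fit of all 4 groups without offsets. Mcm5, a subunit of the MCM ring, was measured in DMSO at 245, 251 and 259 CPM, in DMSO+FGF2 at 244, 255 and 240, in BGJ398 at 255, 236 and 236 and in BGJ398+FGF2 at 224, 252 and 238, with overlapping groups and a change of −0.03 ± 0.06 (adjusted p = 0.771). Mcm2, Mcm3, Mcm4, Mcm6 and Mcm7 were at −0.09 to 0.09, and Cdc45 and Gins2, which complete the active helicase, at 0.06 and −0.05. Ccne1 was at 18.0, 19.5 and 19.1 CPM in DMSO, 20.7, 18.8 and 17.9 in DMSO+FGF2, 20.3, 18.7 and 17.9 in BGJ398 and 16.6, 18.8 and 18.2 in BGJ398+FGF2, a change of 0.02 ± 0.08 (adjusted p = 0.898). Cyclin E2 (Ccne2) and Cdk2 were at −0.11 and −0.04. E2f1 and Pcna, whose values by library are given further on, were at 0.18 ± 0.07 (adjusted p = 0.122) and 0.12 ± 0.05 (adjusted p = 0.154). E2f1 passed on the compared groups alone (adjusted p = 0.0159) and was at 0.17 (adjusted p = 0.0306) without the 3 libraries that stood apart, and Pcna at 0.14 (adjusted p = 0.00948) with length and GC offsets. Gins2, Mcm7 and Cdc20 share 70.5%, 47.6% and 28.7% of their 31-base words with other genes and are uncertain.

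The count of mitotic genes called lower depended on single libraries. It was 2 and 1 with DMSO replicates 2 and 3 left out in turn, 3, 5 and 1 without DMSO+FGF2 replicates 1, 2 and 3, 16 without BGJ398+FGF2 replicate 2, and 17 without the 3 libraries that stood apart, lower in each case. For the replication genes it was 1, 1 and 2 without DMSO replicates 1, 2 and 3, 2 and 1 without DMSO+FGF2 replicates 2 and 3, and 5 without the 3 libraries. Calls over all genes moved too, from 1680 of 12542 tested to 1131, 1052 and 1018 without DMSO replicates 1, 2 and 3. They were 1336, 1086 and 1230 without DMSO+FGF2 replicates 1, 2 and 3. Without BGJ398+FGF2 replicate 2 there were 2256, and without the 3 libraries 2611 of 12616 tested. Summed marker lists also differed between DMSO and DMSO+FGF2. The 8 osteoblast markers summed to 5895 to 6049 TPM in DMSO and 4530 to 5044 TPM in DMSO+FGF2. The 5 macrophage markers summed to 3.97 to 5.99 and 10.3 to 11.5 TPM, with Adgre1 at 0 reads and Ptprc at 2. The osteocyte markers summed to 45.9 to 51.1 and 52.0 to 55.5 TPM in these groups. Such sums hide opposite changes of single genes. Among tested markers, 7 of 8 osteoblast, 2 of 3 osteocyte and 2 of 3 macrophage genes had negative log2 fold changes with FGF2. In each of these lists 1 gene had a positive value, up to 1.94 for the macrophage list. Over all groups, 5 adipocyte markers summed to 9.57 to 16.1 TPM, 5 chondrocyte markers to 8.42 to 12.5, 4 muscle markers to 1.68 to 4.33 and 4 endothelial markers to 0 to 0.489. Their part in the result was not tested.

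**Figure D4:**
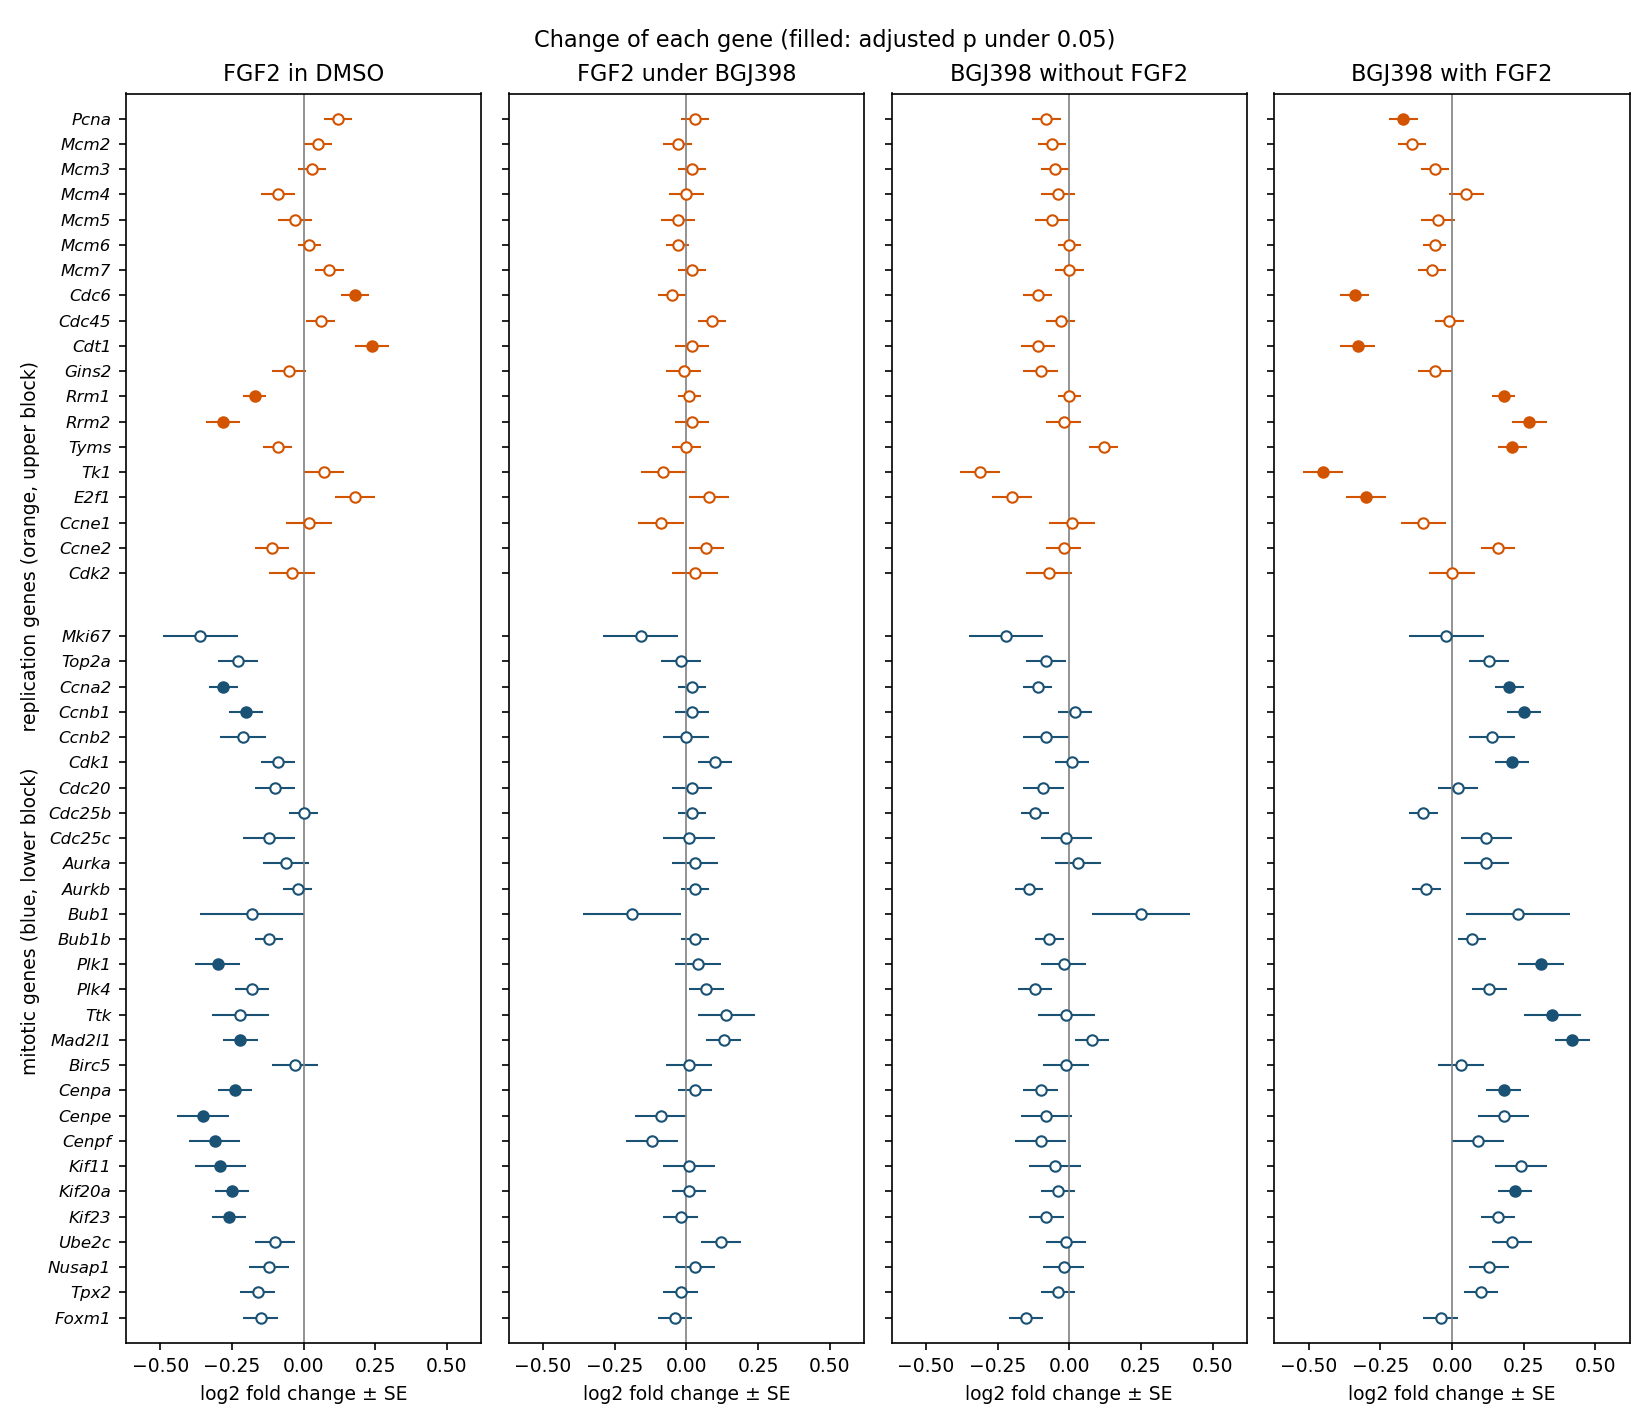
Log2 fold change ± SE (horizontal) of each of the 47 genes (rows, replication genes above in orange, mitotic genes below in blue) in 4 comparisons (panels), filled where the adjusted p was under 0.05. With FGF2 in DMSO 10 mitotic genes are filled on the left side, under BGJ398 and with BGJ398 alone none of the genes is filled, and with BGJ398 in the presence of FGF2 8 mitotic genes are filled on the right.

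The second comparison asked whether FGF2 still changed these genes when its receptors were inhibited. None of the 47 genes passed under BGJ398 by edgeR, where 0% of all genes tested were called higher and 0% lower. At an unadjusted p under 0.05 there were 0 replication genes, 1 mitotic gene and 325 of all genes, and DESeq2 called 0 of the 47. Medians were 0.01 for replication and 0.02 for mitotic genes. Ccna2 changed by 0.02 ± 0.05 (adjusted p = 1) and Rrm2 by 0.02 ± 0.06 (adjusted p = 1), Cdc6 by −0.05 ± 0.05 (adjusted p = 1) and Cdt1 by 0.02 ± 0.06 (adjusted p = 1). Mad2l1 was at 0.13 ± 0.06 (adjusted p = 1), and its 3 BGJ398+FGF2 libraries lay above its BGJ398 libraries. Mki67 was at −0.16 ± 0.13 (adjusted p = 1). A p that misses the threshold does not show that FGF2 left these genes unchanged.

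The third comparison asked what the inhibitor did without added FGF2. No gene of the set passed, where 0.151% of all genes tested were higher and 0.175% lower, although 4 replication and 4 mitotic genes had an unadjusted p under 0.05. Medians were −0.05 and −0.06, and 15 of 19 replication and 23 of 28 mitotic log2 fold changes were negative. Over all genes tested, 1037 of 12542 had an unadjusted p under 0.05, 6132 log2 fold changes were negative and the median was 0.00. Thymidine kinase Tk1 (ENSMUSG00000025574), the salvage enzyme of the thymidine pool, was measured in DMSO at 80.0, 85.6 and 90.9 CPM, in DMSO+FGF2 at 88.7, 92.4 and 87.5, in BGJ398 at 77.5, 64.6 and 65.6 and in BGJ398+FGF2 at 61.8, 67.6 and 67.3. Its BGJ398 libraries lay below the DMSO libraries without overlap, at −0.31 ± 0.07 (adjusted p = 0.126). DESeq2 called 1 replication gene, 1 passed without BGJ398 replicate 1, and 3 replication and 2 mitotic genes passed, lower, without the 3 libraries that stood apart. Among the latter were E2f1 at −0.29 (adjusted p = 0.00681), Mki67 at −0.16 (adjusted p = 0.0419) and Foxm1 at −0.14 (adjusted p = 0.0343). Calls over all genes also rose there, from 41 of 12542 tested to 730 of 12616. By DESeq2 they were 153 of 12542, and without BGJ398 replicate 1 they were 27 of 12678. With length and GC offsets Mki67 was at −0.23 (adjusted p = 0.015).

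The fourth comparison set BGJ398+FGF2 against DMSO+FGF2 and asked which genes the inhibitor moved in the presence of FGF2. It shares the DMSO+FGF2 libraries with the first comparison, so opposite signs in both are partly fixed by those libraries and are not independent. Mitotic genes were higher with the inhibitor: 8 of 28 rose and 0 fell, where 10.8% of all genes tested were higher and 11.4% lower. Of the 19 replication genes 3 were higher, Rrm1, Rrm2 and Tyms, and 5 lower, Cdc6, Cdt1, Tk1, E2f1 and Pcna. Medians were 0.14 for mitotic, −0.06 for replication and 0.00 for all genes tested, and with length and GC offsets the mitotic median was 0.08.

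Mad2l1, whose BGJ398+FGF2 libraries were the highest 3 of the 12, rose by 0.42 ± 0.06 (adjusted p = 0.000202), or by 0.27 with length and GC offsets (adjusted p = 5.71e-05). Plk1 rose by 0.31 ± 0.08 (adjusted p = 0.015), Ccnb1 by 0.25 ± 0.06 (adjusted p = 0.0101), Kif20a by 0.22 ± 0.06 (adjusted p = 0.0188) and Ccna2 by 0.20 ± 0.05 (adjusted p = 0.0125). For these 4 the BGJ398+FGF2 libraries overlapped the DMSO libraries. Ttk rose by 0.35 ± 0.10 (adjusted p = 0.0201), and its BGJ398+FGF2 libraries lay above DMSO+FGF2 but overlapped DMSO and BGJ398. Cdk1, which FGF2 alone had not moved past the threshold, rose by 0.21 ± 0.06 (adjusted p = 0.0216), but was at 0.05 (adjusted p = 0.739) with length-scaled TPM counts. Top2a, at 0.13 ± 0.07 (adjusted p = 0.246), passed without the 3 libraries that stood apart, at 0.17 (adjusted p = 0.0122). Cenpa was at 0.18 ± 0.06 (adjusted p = 0.0476), but at −0.03 (adjusted p = 0.912) when length-scaled TPM counts were used, and its reads were split over several transcripts, with 40.3% on the most abundant one in DMSO.

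In the replication class Cdc6 fell by 20.8%, a log2 change of −0.34 ± 0.05 (adjusted p = 0.000308), and Cdt1 fell by 20.3%, or −0.33 ± 0.06 (adjusted p = 0.002), with BGJ398+FGF2 below the DMSO libraries in both. Tk1, printed above, fell by 26.8%, or −0.45 ± 0.07 (adjusted p = 0.000891), and both inhibitor groups lay below both DMSO groups. E2f1, the activator of S phase genes, was at 106, 113 and 109 CPM in DMSO, 124, 125 and 122 in DMSO+FGF2, 106, 90.0 and 89.3 in BGJ398 and 92.3, 103 and 106 in BGJ398+FGF2. DMSO+FGF2 was highest and the inhibitor changed it by −0.30 ± 0.07 (adjusted p = 0.00876), or by −0.18 with length and GC offsets (adjusted p = 0.013) and −0.19 with length-scaled TPM counts (adjusted p = 0.0573). Pcna was measured in DMSO at 329, 329 and 332 CPM, in DMSO+FGF2 at 372, 360 and 347, in BGJ398 at 321, 306 and 313 and in BGJ398+FGF2 at 322, 339 and 298. It changed by −0.17 ± 0.05 (adjusted p = 0.0346), and it shares 38% of its 31-base words with other genes, chiefly Pcna-ps2, and is uncertain.

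Rrm1 and Rrm2 rose by 0.18 ± 0.04 (adjusted p = 0.00768) and 0.27 ± 0.06 (adjusted p = 0.00433). The thymidylate synthase gene Tyms, which makes thymidine monophosphate anew, was at 77.2, 74.9 and 73.8 CPM in DMSO, 68.1, 72.7 and 71.9 in DMSO+FGF2, 78.5, 82.9 and 84.5 in BGJ398 and 80.2, 85.1 and 80.6 in BGJ398+FGF2. Both inhibitor groups were above both DMSO groups for it, the reverse of the salvage enzyme Tk1, and the change was 0.21 ± 0.05 (adjusted p = 0.0118). Cdc6, Cdt1, Tk1, Rrm2 and Mad2l1 stayed past the threshold in all 22 other settings of this comparison. Rrm2 was at 0.17 (adjusted p = 0.0137) with length and GC offsets. With those offsets Rrm1 was at 0.10 (adjusted p = 0.106), Ccnb1 at 0.13 (adjusted p = 0.108) and Ccna2 at 0.12 (adjusted p = 0.0526), none of them past the threshold. The count of mitotic genes called was 2 without DMSO+FGF2 replicate 3, 1 without BGJ398+FGF2 replicate 1 and 14 without the 3 libraries that stood apart, and for replication genes it was 10 without those 3. Calls over all genes, 2782 of 12542 tested with all libraries, were 1971 of 12661, 1948 of 12670 and 3691 of 12616 in these 3 settings.

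**Figure D5:**
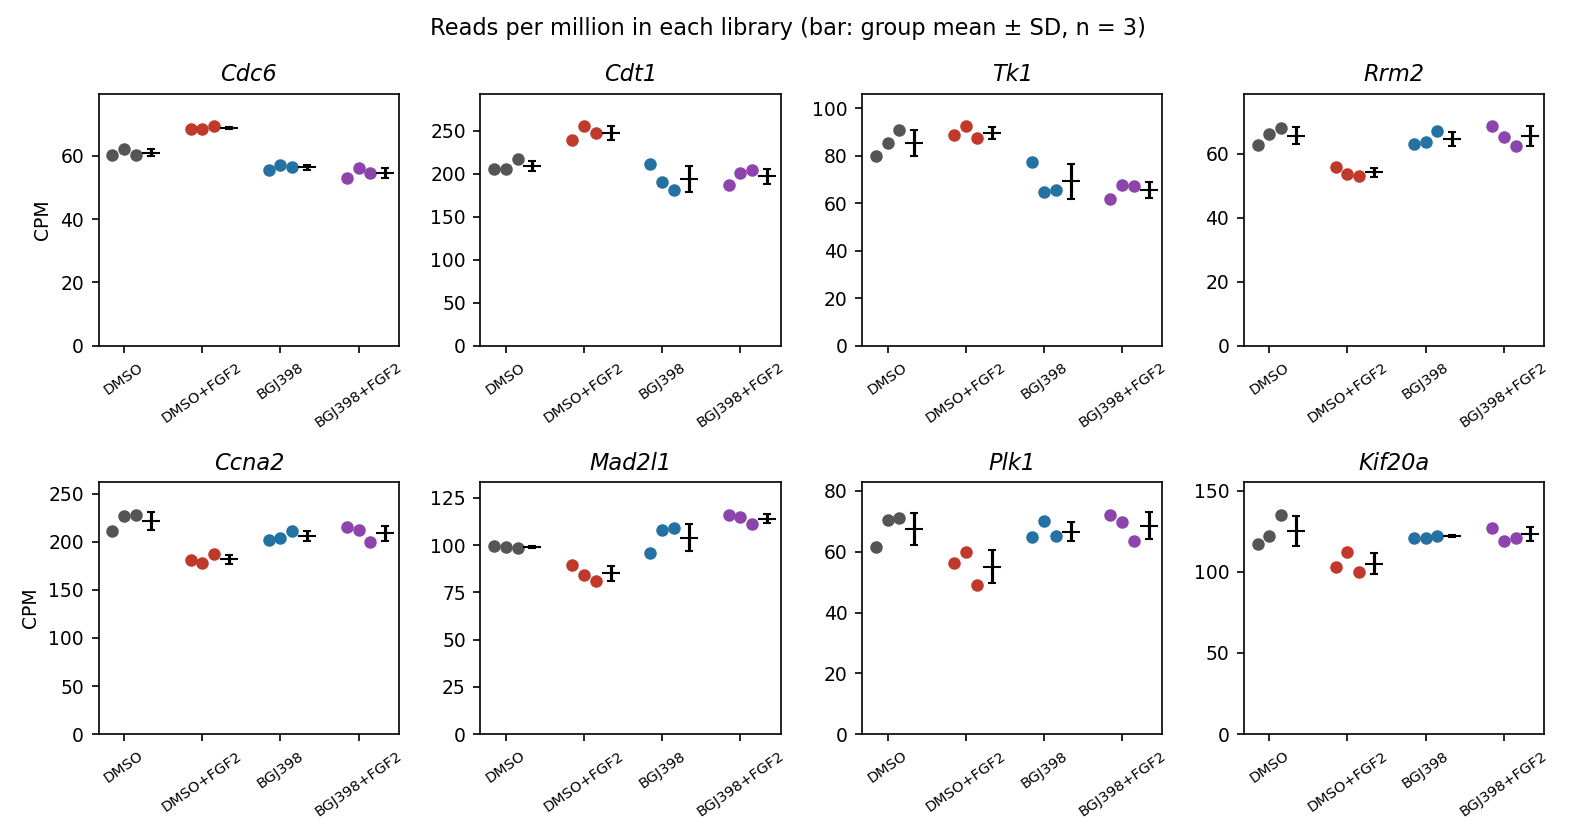
CPM (vertical, from 0) in each library (points) by group for 4 replication genes (top) and 4 mitotic genes (bottom), with the group mean ± SD (n = 3) beside them. DMSO+FGF2 is the highest group for Cdc6 and Cdt1 and the lowest for Rrm2, Ccna2, Mad2l1, Plk1 and Kif20a, while Tk1 is lower in both inhibitor groups.

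The interaction asked whether the FGF2 change itself differed between inhibitor and vehicle, as the change under BGJ398 minus that in DMSO. Of the mitotic genes 2 passed, Ccna2 at 0.31 ± 0.07 (adjusted p = 0.0256) and Mad2l1 at 0.34 ± 0.08 (adjusted p = 0.0298), both higher, where 1.99% of all genes tested were higher and 2.25% lower. The median over the mitotic genes was 0.21, and 27 of 28 values were positive. No replication gene passed in edgeR, 4 had an unadjusted p under 0.05, and DESeq2 called 3. Over all genes tested, 2148 of 12542 had an unadjusted p under 0.05, and DESeq2 called 825. Rrm2 had the lowest adjusted p of the replication genes, at 0.30 ± 0.08 (adjusted p = 0.0586), or 0.24 with length and GC offsets (adjusted p = 0.0373), and Cdc6 was at −0.23 ± 0.07 (adjusted p = 0.0882). The mitotic count was 0 without DMSO replicate 2 or 3, BGJ398 replicate 1, DMSO+FGF2 replicate 2 or BGJ398+FGF2 replicate 1, 1 without DMSO replicate 1, BGJ398 replicate 2 or DMSO+FGF2 replicate 1 or 3, 5 without BGJ398+FGF2 replicate 2 and 10 without the 3 libraries that stood apart. Ccnb1 at 0.28 (adjusted p = 0.0399) and Mki67 at 0.22 (adjusted p = 0.0471) were among those 10, and with length and GC offsets Cdk1 passed at 0.21 (adjusted p = 0.0472). In the fit of all libraries without offsets, for the other mitotic genes called with FGF2 in DMSO, a difference between vehicle and inhibitor was not shown by this test.

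Other genes of the same pathways were read from lists chosen for their roles. The choice was made with earlier results of these data known, so their counts are no independent support. With FGF2 in DMSO, 14 of 55 further mitotic genes were lower and 0 higher (median −0.17), against 5.82% lower and 7.57% higher over all genes tested, led by the spindle protein gene Ckap2l at −0.32 ± 0.06 (adjusted p = 0.00304), lamin B1 (Lmnb1) at −0.29 ± 0.05 (adjusted p = 0.00308), Fbxo5, the inhibitor of the anaphase-promoting complex, at −0.36 ± 0.07 (adjusted p = 0.00332), and the kinesin Kif18b at −0.24 ± 0.06 (adjusted p = 0.0153). Of 50 further replication genes 1 was lower, Usp1 at −0.20 ± 0.06 (adjusted p = 0.0395), a deubiquitinase of PCNA, and 0 higher (median −0.03). Leaving out 1 library ended the Usp1 call for 8 of 12 libraries, at an adjusted p of up to 0.161 without DMSO+FGF2 replicate 2. That of Kif18b was ended by 4, up to 0.0828 without DMSO replicate 2. With BGJ398 in the presence of FGF2, 8 of the 55 were higher and 0 lower, against 10.8% and 11.4% over all genes tested, and the 4 with the smallest p were Ckap2l at 0.36 ± 0.06 (adjusted p = 0.000886), Fbxo5 at 0.37 ± 0.07 (adjusted p = 0.00187), and the kinetochore and spindle genes Nuf2 at 0.30 ± 0.08 (adjusted p = 0.0116) and Hmmr at 0.33 ± 0.09 (adjusted p = 0.0144). With length and GC offsets Nuf2 was at 0.17 (adjusted p = 0.0501) and Hmmr at 0.21 (adjusted p = 0.0215), and the Hmmr call ended without DMSO+FGF2 replicate 2 (adjusted p = 0.055) or BGJ398+FGF2 replicate 1 (adjusted p = 0.0729). Of the 50, 4 were higher and 6 lower, shares near those over all genes. The 4 with the smallest p were the polymerase alpha subunit Pola2 at −0.30 ± 0.05 (adjusted p = 0.00168), the maintenance methylation factor Uhrf1 at −0.19 ± 0.05 (adjusted p = 0.00928), the DNA ligase Lig1 at −0.21 ± 0.05 (adjusted p = 0.0125) and the chromatin assembly subunit Chaf1a at −0.21 ± 0.05 (adjusted p = 0.0137), all lower. Chaf1a was at −0.13 (adjusted p = 0.131) with the offsets, and Lig1 lost its call without the libraries that ended that of Hmmr (adjusted p = 0.0579 and 0.0604). Under BGJ398, 0 genes of either list passed with FGF2 in edgeR, with 2 of each at an unadjusted p under 0.05. Over all genes tested that was 325 of 12542.

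Upstream of S phase, 3 of 7 G1 cyclins, their kinases and Myc were lower with FGF2 in DMSO and 0 higher, where 5.82% of all genes tested were lower. Cyclin D1 (Ccnd1), which carries mitogen signals to the retinoblastoma protein, was measured in DMSO at 60.5, 64.3 and 65.1 CPM, in DMSO+FGF2 at 43.7, 49.7 and 42.0, in BGJ398 at 54.9, 50.6 and 59.4 and in BGJ398+FGF2 at 54.8, 55.0 and 53.0. DMSO+FGF2 was the lowest group, with a change of −0.49 ± 0.07 (adjusted p = 0.000594). Myc, the growth-promoting transcription factor, was at 109, 104 and 97.4 CPM in DMSO, 79.1, 78.3 and 78.4 in DMSO+FGF2, 116, 118 and 120 in BGJ398 and 107, 114 and 115 in BGJ398+FGF2. It too was lowest in DMSO+FGF2, at −0.39 ± 0.05 (adjusted p = 0.000218). Cyclin D2 (Ccnd2) was measured in DMSO at 151, 150 and 162 CPM, in DMSO+FGF2 at 136, 123 and 130, in BGJ398 at 120, 129 and 126 and in BGJ398+FGF2 at 130, 123 and 124. Here DMSO was above the other groups, with −0.25 ± 0.05 (adjusted p = 0.00679) for FGF2 in DMSO, or −0.16 with length and GC offsets (adjusted p = 0.0466), and −0.30 ± 0.05 (adjusted p = 0.0335) for BGJ398 without FGF2, the only call of these pathway lists in that comparison, which 8 of the 12 left-out libraries ended, at adjusted p of up to 0.213 without DMSO replicate 3.

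With BGJ398 in the presence of FGF2, Myc rose by 0.51 ± 0.05 (adjusted p = 2.01e-05), Ccnd1 by 0.27 ± 0.07 (adjusted p = 0.0212) and the cyclin D kinase Cdk6 by 0.33 ± 0.08 (adjusted p = 0.0104). Cdk6 was at 0.17 (adjusted p = 0.303) with length-scaled TPM counts, and the Ccnd1 call ended without DMSO+FGF2 replicate 1 or 3 or BGJ398+FGF2 replicate 1, at adjusted p of 0.0638 to 0.0904. Cyclin-dependent kinase inhibitors and retinoblastoma relatives gave 1 call among 9 tested of 10. Cdkn1a (p21) was at 47.8, 50.6 and 46.7 CPM in DMSO, 56.6, 56.7 and 58.4 in DMSO+FGF2, 57.2, 50.2 and 48.0 in BGJ398 and 48.1, 56.1 and 54.6 in BGJ398+FGF2 and was higher with FGF2 in DMSO by 0.24 ± 0.08 (adjusted p = 0.0486), a call that 13 of the 22 other settings ended. Cdkn2a, the locus of the INK4A and ARF inhibitors, was at group means of 656, 762, 732 and 789 CPM in DMSO, DMSO+FGF2, BGJ398 and BGJ398+FGF2 and did not pass in any comparison fitted on all 4 groups without offsets, with a change of 0.22 ± 0.10 (adjusted p = 0.201) for FGF2 in DMSO. It was higher there without the 3 libraries that stood apart, at 0.13 (adjusted p = 0.0381), and on the compared groups alone (adjusted p = 0.0376), and with length and GC offsets it was at 0.20 (adjusted p = 0.029) for BGJ398 without FGF2 and 0.22 (adjusted p = 0.00166) for BGJ398 in the presence of FGF2. Cdkn1b (p27) and Rb1 were at −0.04 ± 0.07 (adjusted p = 0.776) and 0.08 ± 0.12 (adjusted p = 0.709) with FGF2 in DMSO and passed in none of the 5, except that Cdkn1b was at −0.14 (adjusted p = 0.0415) with offsets for BGJ398 in the presence of FGF2. Among 15 tested E2F, MYB and DREAM genes of 16, E2f4, the repressor E2F of resting cells, was higher with FGF2 in DMSO by 0.25 ± 0.07 (adjusted p = 0.0285) and lower with BGJ398 in the presence of FGF2, at −0.24 ± 0.07 (adjusted p = 0.0244), where E2f3, an activator, rose by 0.27 ± 0.07 (adjusted p = 0.0129). The E2f4 calls ended without any 1 of 4 libraries (adjusted p up to 0.135) and of 3 libraries (up to 0.112) in these comparisons, and that of E2f3 without DMSO+FGF2 replicate 2 (adjusted p = 0.0569).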

How the data were processed

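RNA of 12 Ocy454 libraries in 4 groups of 3 was compared, with groups and replicate numbers from the sample titles. Reads were quantified with Salmon on build GRCm39, per the submitters' processing notes; its version and strand setting were not given in the sources used here, and reads of antisense or overlapping genes may be mixed. The deposited tables hold, per the file headers, expected counts (estimated reads per transcript, not scaled), TPM (corrected for length and scaled within a library) and effective lengths. Transcripts were summed per gene by identifier with GENCODE M21 (114656 of 116178 matched; the other 1522, 0.499% to 0.641% of reads, were left out), and expected counts were rounded. Tests used edgeR 4.0.16 (R 4.3.3): filterByExpr by group, TMM scaling, and the 2-sided quasi-likelihood test on 4 group means with 8 residual degrees of freedom. P-values were adjusted by Benjamini-Hochberg over 12542 genes, threshold 0.05. Standard errors were obtained as |log2 fold change|/√F. The biological coefficient of variation was 8.49%.

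The 22 other settings were a replicate block, RLE size factors, DESeq2 1.42.0, limma 3.58.1 (voom, and trend on log2(TPM + 0.1)), no filter, the compared groups alone, length-scaled TPM counts, each library left out, and 2 chosen after seeing the data (without 3 libraries; length and GC offsets). Replicate pairs differed by 3.23 to 25 times the Poisson variance, more than counting noise alone. This cannot tell separate cultures from separate libraries of the same culture. Members and lists were chosen with earlier results of these data known. Values by library are printed for members called in any comparison and 10 fixed ones, and the other members by range. Of each pathway list up to 4 called genes with the smallest p are named, plus Cdkn1a, Cdkn1b, Cdkn2a, Ccnd1 and Rb1. Marker lists covered osteoblasts, osteocytes, adipocytes, chondrocytes, macrophages, endothelium and muscle. No protein sequence was used here.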

Additional observations from a re-analysis of the deposited data

Results flagged for a closer look

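For 6 genes the effect of FGF2 differed between vehicle and inhibitor by the interaction test of edgeR's quasi-likelihood fit. They were 2 of 28 mitotic genes, 2 of 55 further mitotic genes and 2 of 7 G1 genes. None passed among 19 replication genes, 50 further replication genes, 9 CDK inhibitors and retinoblastoma relatives, and 15 E2F, MYB and DREAM genes. Over all genes tested 1.99% were called higher and 2.25% lower. Of the cell cycle genes, Ccna2 differed by 0.31 ± 0.07 (log2, SE, adjusted p = 0.0256) and Mad2l1 by 0.34 ± 0.08 (adjusted p = 0.0298). Of the further mitotic genes, Ckap2l differed by 0.45 ± 0.08 (adjusted p = 0.00786) and Fbxo5 by 0.45 ± 0.10 (adjusted p = 0.0179). Of the G1 genes, Ccnd1 differed by 0.47 ± 0.10 (adjusted p = 0.0216) and Myc by 0.31 ± 0.07 (adjusted p = 0.027). In each the change with FGF2 was negative in DMSO and, under BGJ398, between −0.08 (Myc) and 0.13 (Mad2l1 and Ckap2l). Ckap2l stayed past the threshold in all 21 other settings, and Fbxo5, Ccnd1, Ccna2, Mad2l1 and Myc in 17, 13, 12, 11 and 9 of them.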

How the results depend on the processing

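With FGF2 in DMSO, 10 mitotic genes were called, 1 to 16 with 1 library left out, 3 with length-scaled TPM counts and 17 without the 3 libraries that stood apart; replication calls were 4, 1 to 4 with 1 library left out and 2 without a filter. The mitotic median of −0.19 was −0.25 by limma on log2 TPM, where all genes shifted by −0.08. Under BGJ398 the mitotic median of 0.02 was −0.02 by limma on log2 TPM. With BGJ398 alone, 0 replication genes were called, 0 to 1 with 1 library left out, 1 by DESeq2, without a filter or with offsets, and 3 without the 3 libraries; mitotic calls were 0, then 2 without the 3 libraries and 1 with offsets. With BGJ398 in the presence of FGF2, 8 replication genes were called, or 5 on the compared groups alone. Mitotic calls there were 8, 1 to 12 with 1 library left out, 4 on the compared groups alone, 5 with length-scaled TPM counts or limma on log2 TPM, and 14 without the 3 libraries, with a median of 0.14 (0.11 to 0.19 with 1 library left out, 0.08 with offsets). The Cenpa change of 0.18 was −0.03 with length-scaled TPM counts. In the interaction, replication calls were 0, 0 to 2 with 1 library left out, 3 by DESeq2, 1 without the 3 libraries and 2 with offsets. Mitotic calls were 2, 0 to 5 with 1 library left out, 1 with length-scaled TPM counts, 0 by limma on log2 TPM, 10 without the 3 libraries and 6 with offsets, with a median of 0.21 (0.15 to 0.23 with 1 library left out, 0.14 with length-scaled TPM counts, 0.15 with offsets). Without the 3 libraries, calls over all genes rose as well. They went from 1680 to 2611 for FGF2 in DMSO and from 41 to 730 for BGJ398 alone. For BGJ398 in the presence of FGF2 they went from 2782 to 3691, and for the interaction from 532 to 1038. With length and GC offsets they also rose, to 2659 for FGF2 in DMSO and 214 for BGJ398 alone. The offsets gave 3624 for BGJ398 in the presence of FGF2 and 1207 for the interaction. The causes were not tested.

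Same-numbered libraries correlated at −0.15 to 0.24 and 4 of 12 correlated best with their own number. These values do not decide whether the numbers pair the samples, because the axis that followed transcript length held 47.5% of the within-group variance. The labels do not state a pairing either. With the replicate number as a block the interaction called 0 mitotic genes, and all-gene calls went from 1680 to 1503 for FGF2 in DMSO.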

Other observations

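Reads of Cdc6 were split over transcripts. The transcript ENSMUST00000093937 held a mean of 56.5% of them in DMSO (54.7% to 58.4% over libraries), 58% in DMSO+FGF2 (53.9% to 63.7%), 63.7% in BGJ398 (61.5% to 65.6%) and 65% in BGJ398+FGF2 (62.3% to 68.3%). These are Salmon estimates without a test, chosen after their values were seen, and DMSO+FGF2 overlapped both inhibitor groups.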
